A study of Mus musculus with 37 samples.

Results

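The chemokines described here are 10 genes of the CC and CXC families, and the measurements are the 18 open reading frames (ORFs) that the authors listed as translated from them, out of 22367 ORFs in all. The whole list has 10418 transcript families, which gave 10182 named genes. An ORF was a member when its name in the list, without position, length and a trailing number, was Ccl2, Ccl3, Ccl4, Ccl5, Ccl7, Ccl17, Ccl22, Cxcl1, Cxcl10 or Cxcl16. The genes were picked from the list itself with its results known, so their presence there is how they were chosen and not a result. There are 7 CC and 3 CXC genes. The label holds by name for all 18 ORFs; no protein sequence was at hand to check it further.

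The ORFs come from ribosome footprints, the RNA fragments that translating ribosomes protect from nuclease, of dendritic cells grown from the bone marrow of C57BL/6J mice aged 6 to 8 weeks. On day 9 of culture the cells received lipopolysaccharide (LPS), a bacterial cell wall component sensed by Toll-like receptor 4, at 100 ng/mL for 0.5 to 12 h, or a mock treatment, or were left naive. With cycloheximide, which arrests elongating ribosomes (100 ug/mL, 1 min), there were 16 LPS, 8 mock and 2 naive libraries; without inhibitor there were 8 LPS libraries and 1 naive library. A library with harringtonine (1 ug/mL, 5 min) and another with lactimidomycin (50 ug/mL, 30 min), agents that hold ribosomes at start codons, pooled several LPS times. All 37 libraries share the single list, which gives a score per ORF and no value per library. The chemokines' response to LPS, their levels and the depth behind each ORF were therefore not analysed here, no value has a replicate, and no test was made. The culture's labelled cell type could be checked for presence only: 9 of 10 dendritic cell markers had a listed ORF (Flt3 had none), as did 4 of 5 macrophage, 6 of 6 neutrophil, 2 of 3 fibroblast, 1 of 3 B cell and 0 of 3 T cell markers. Which cells of the culture translated each chemokine was not tested, and the labels do not say which libraries came from the same mice.

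Chemokines are small secreted proteins that direct leukocyte migration through G protein-coupled receptors. They are made with a signal peptide, and the 2 families are named for the spacing of the first cysteines of the mature protein, adjacent in CC and separated by a residue in CXC chemokines. Cells of the dendritic lineage secrete many of them on sensing microbes: CCL3, CCL4 and CCL5 attract T cells and monocytes, CCL2 and CCL7 recruit monocytes, CCL17 and CCL22 attract CCR4-bearing T cells, CXCL1 attracts neutrophils and CXCL10 attracts CXCR3-bearing T cells. CXCL16 is made as a transmembrane protein that can be shed.

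Reference sequence of the start region was available for Ccl22 and Ccl17, and is shown because these genes have, respectively, a single start and a pair of in-frame starts in the list. Both stretches are RefSeq sequence of GRCm38.p6, on the plus strand of chromosome 8, with the first ATG of the transcript in capitals.
Ccl22, chr8:94745705-94745733: cataacatcATGgctaccctgcgtgtccc
Ccl17, chr8:94810472-94810501: ATGaagaccttcacctcagcttttggtacc
The ATG begins at base 31 of the RefSeq transcript of Ccl22 and at base 20 of that of Ccl17, counting the first transcribed base as 1. The list uses another build, mm9, so its coordinates could not be read against these windows. The distance from the Ccl22 ATG to the Ccl17 ATG was 64758 bases in GRCm38.p6, and the distance between the first bases of the listed starts of the 92-codon Ccl22 ORF and the 103-codon Ccl17 ORF was also 64758 bases in mm9. Windows of this kind, each with 50 transcribed bases, existed for 5 of the 10 genes. The letters ATG, searched on the transcribed strand, were in 3 of them (Ccl3, Ccl17 and Ccl22) and in 44.3% of all 32851 windows; the ATG in the Ccl3 window was not matched to a listed start, and no ATG stood in those of Cxcl1 and Cxcl10.

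The main ORF of each chemokine, defined as the longest ORF listed for the gene, scored above the median of all main ORFs, Cxcl16 by the least. The score is the authors' own value per ORF, a whole number from 500 to 991 here, and serves only to rank ORFs within this list. The main ORFs of Ccl2, Ccl3, Ccl4, Ccl5 and Ccl22 were all at 991, the highest score. Cxcl10 scored 988, Cxcl1 987, Ccl17 977, Ccl7 969 and Cxcl16 944. The Ccl7 ORF scored above 75.1% of all main ORFs and the Cxcl16 ORF above 57.3%. The median of the 10 was 989.5, beside 926 for all 10418 main ORFs, and 5 of 10 were at the highest score beside 1.54% of all main ORFs. All 10 scored 900 or more, as did 56.7% of all main ORFs and 59.0% of the 1117 main ORFs under 150 codons. The genes were chosen from this list, so these shares describe them and support nothing.

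**Figure D1:**
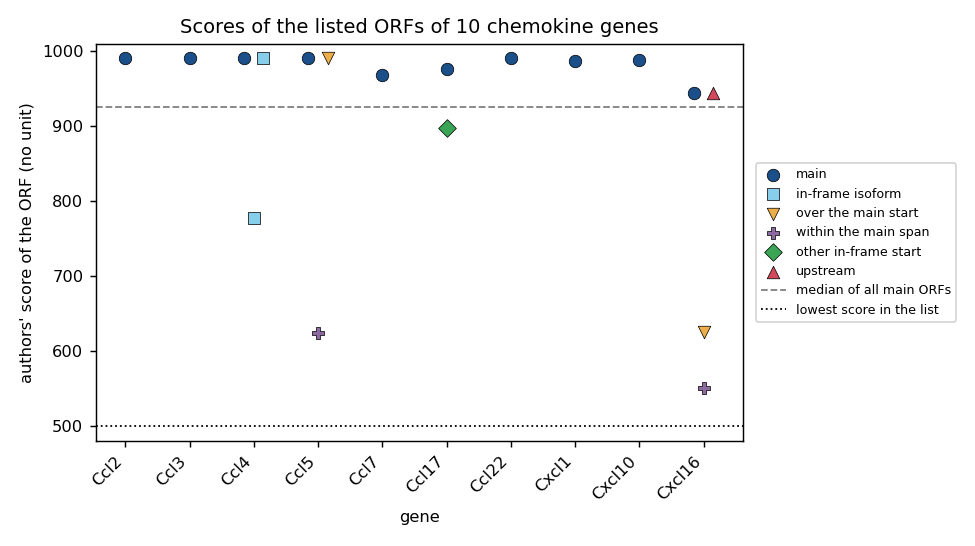
Authors' score (vertical axis, no unit) of the 18 listed ORFs of the 10 chemokine genes (horizontal axis); each point is an ORF, its shape and colour give its class, and points with near-equal scores are set side by side. All 10 main ORFs lie above the dashed line at 926, the median of all main ORFs, while the other 8 ORFs run from 551 to 991.

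The main ORFs were short, with 91 to 148 codons in all but Cxcl16, beside a median of 435 over all main ORFs. Among the CC genes the main ORFs had 91 codons in Ccl5, 92 in Ccl3, Ccl4 and Ccl22, 97 in Ccl7, 103 in Ccl17 and 148 in Ccl2, without the stop codon. The ORF of Ccl2, a monocyte attractant, was longer than those of the other 6 CC genes, which had 91 to 103 codons, and its extra length lay in the last coding exon. That exon held 253 coding bases in Ccl2 against 82 to 106 in the others. Of the CXC genes, Cxcl1 had 96 codons and Cxcl10 had 98, while Cxcl16, the transmembrane chemokine, had 246.

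All 10 main ORFs were split by introns in the same way at their 5' end. An intron's phase is the number of bases of a codon that precede it, so phase 0 falls between codons. In each of the 10 ORFs the first junction had phase 1 and the second phase 2, an order found in 7.47% of all main ORFs. The 7 CC ORFs had 3 coding exons with exactly these phases, as 0.595% of all main ORFs did. Cxcl1 and Cxcl10 had 4 coding exons with phases 1, 2 and 2, as 0.134% of all main ORFs did, and only 16 and 19 coding bases in the last of them. Cxcl16 had 5 coding exons with phases 1, 2, 1 and 1, and its coding exon 4 filled the stretch from codon 98 to codon 234. The first junction lay in codon 26 in Ccl2, Ccl3, Ccl4, Ccl5 and Ccl7, in codon 25 in Ccl22, in codon 24 in Cxcl1 and Cxcl16, in codon 21 in Cxcl10 and in codon 34 in Ccl17. The second coding exon, which follows it, had 112 bases in Ccl3, Ccl5 and Ccl7, 115 in Ccl4, 118 in Ccl2 and Ccl17, and 124 to 139 in the rest. These values were common in the list. Over all main ORFs with a junction, the first lay at a median codon of 34.0, with quartiles of 18.0 and 59.0. Over those with 3 or more coding exons, the second had a median of 121 bases, with quartiles of 85.0 and 168. Junctions come from the transcript models and the chosen start, not from the number of footprints.

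**Figure D2:**
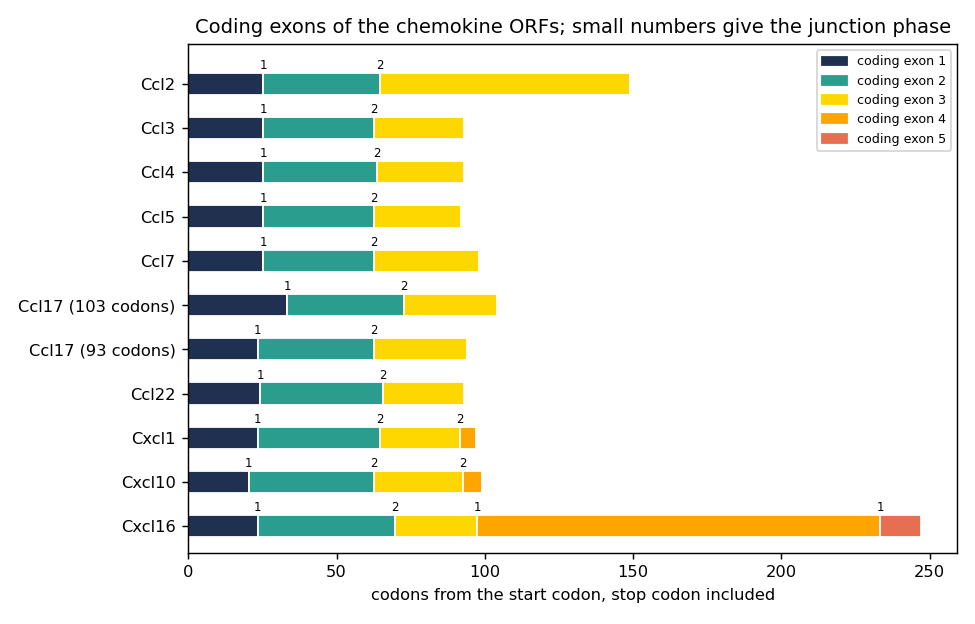
Coding exons of the main ORFs of the 10 chemokine genes, and of the shorter Ccl17 ORF, drawn in codons from the start codon (horizontal axis); colours number the coding exons and the small numbers give the phase of each junction. The first junctions have phase 1 then 2 in every bar, at codons 24 and 63 for the 93-codon Ccl17 ORF and at codons 34 and 73 for the 103-codon one.

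Ccl17, an attractant of CCR4-bearing T cells, was the only one of the 10 genes with another in-frame start, beside 23.1% of all named genes. Its ORFs of 103 and 93 codons ran on the same transcript to the same stop codon at chromosome 8, position 97335753 of mm9. They began at 97334372 and 97334402, 30 bases or 10 codons apart. The longer ORF scored 977 and the shorter 898; over the list, 57.0% of other in-frame starts scored below their own main ORF, as this one did. The 30 bases printed above for Ccl17 begin with the first ATG and are as long as the stretch between the listed starts; the reference window ends on the next base, so a second ATG could not be read. Counted from the shorter start, the junctions fell in codons 24 and 63, against codons 25 to 26 and 63 to 66 in the other 6 CC genes. Counted from the longer start they fell in codons 34 and 73.

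Upstream ORFs, which begin before the main start and share no codon with the main ORF, were listed in Ccl5 and Cxcl16, 2 of 10 genes beside 19.9% of all named genes; only Cxcl16 had one that ended before the main start, beside 16.0%. Such ORFs can lower or delay initiation at the main start of an mRNA. In Ccl5, a T cell and monocyte attractant, an ORF of 11 codons at chr11:83343960-83343995 on the minus strand began 32 bases before the main start. Its last 4 bases were the first 4 bases of the main ORF, in another frame. An overlap of exactly 4 bases was found in 11.8% of the 650 ORFs that run over a main start on a transcript holding it. The 11-codon ORF scored 991, as did the main ORF it overlaps, a score reached by 3 of all 692 ORFs over a main start (0.434%). ORFs over the main start were listed in both Ccl5 and Cxcl16, 2 of 10 genes beside 5.24%.

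Cxcl16 had 4 ORFs, the most of the 10 genes, and all lay on listed transcripts with its main start at 70272949 on the minus strand of chromosome 11. The shortest had 4 codons at chr11:70272982-70272996, with 32 bases between its stop and the main start. It scored 945, next to 944 for the 246-codon main ORF, and 15.7% of the 2857 upstream ORFs of the list scored as high or higher. A second ORF, of 54 codons with a score of 625, began 55 bases before the main start and shared 110 bases with the main ORF in another frame. It ended at 70272562, together with a 34-codon ORF of score 551 that began 73 bases inside the main ORF. These 2 ORFs shared their last 13 codons, and the exon holding their stop was 71 bases long on the transcript of the 54-codon ORF and 139 on that of the 34-codon ORF.

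**Figure D3:**
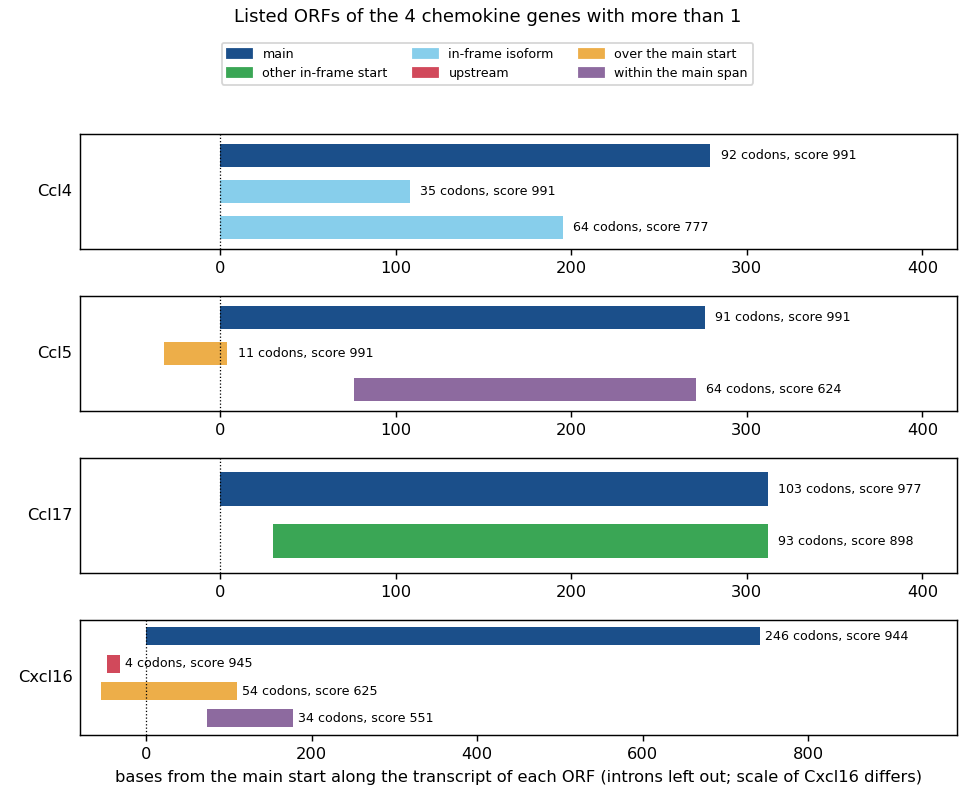
Listed ORFs of Ccl4, Ccl5, Ccl17 and Cxcl16, drawn in bases from the main start along the transcript of each ORF, without introns (the horizontal scale of Cxcl16 differs); bars run from start to stop codon, colours give the class, and each bar names its codons and score. The 11-codon ORF of Ccl5 reaches 4 bases past the main start, the 4-codon ORF of Cxcl16 ends before it, and the 3 ORFs of Ccl4 share their start.

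Ccl5 and Cxcl16 were also the 2 of 10 genes with an ORF within the span of the main ORF, a class that takes in other frames and other exons and was found in 8.65% of all named genes. That of Ccl5 had 64 codons. It began 76 bases past the main start, in another frame, and ended 5 bases before the end of the main stop codon, at chr11:83339484-83342769. All of its 195 bases were thus coding in the main frame too. Its score of 624 was above those of 35.4% of the 1250 ORFs of this class.

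Ccl4, a T cell and monocyte attractant, was the only one of the 10 genes with in-frame isoforms that end at another stop, beside 6.82% of all named genes. Its 3 ORFs began at 83476165 on the plus strand of chromosome 11 and differed through the second coding exon, of 115 bases in the 92-codon main ORF. In the 64-codon isoform this exon began at the same base but ran on for another 451, and the ORF shared 63 codons with the main ORF and ended 4 bases past the edge of the shorter exon. In the 35-codon isoform the exon began 50 bases later, a shift that is no multiple of 3, and 25 codons were shared. The 35-codon ORF scored 991, as did the main ORF, and the 64-codon ORF scored 777. Of the 892 isoforms of this class in the list, 72.4% kept the main start and 21.5% scored at least as high as their main ORF. All 108 bases of the 35-codon ORF, and 191 of the 195 of the 64-codon ORF, were also coding bases of the main ORF. Footprints over these bases that cross no exon junction cannot be assigned to a single isoform by position. Those across the junction into the later-starting exon of the 35-codon isoform could differ in position, but no footprint was examined here.

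The remaining 6 genes, Ccl2, Ccl3, Ccl7, Ccl22, Cxcl1 and Cxcl10, had a single listed ORF each, as 43.6% of all named genes did. Their mm9 positions are chr11:81849164-81850680 for Ccl2 and chr11:81859286-81860592 for Ccl7 on the plus strand, and chr11:83461755-83462779 for Ccl3 on the minus strand. Ccl22 lies at chr8:97269614-97273786 and Cxcl1 at chr5:91320337-91321549, both on the plus strand, and Cxcl10 at chr5:92776393-92777840 on the minus strand.

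The leaders, the transcript bases before the main start, were uneven. They had 72 bases in Ccl7, 75 in Cxcl10, 85 in Ccl2, 205 in Cxcl1, 260 in Ccl22, 537 in Cxcl16, 698 in Ccl3, 700 in Ccl17, 1444 in Ccl4 and 5324 in Ccl5. Over all main ORFs the median leader was 186 bases with quartiles of 92.0 and 365. Leaders of 500 or more bases were listed for 5 of 10 chemokines beside 16.0% of all main ORFs, and 2 of these 5 had an upstream ORF beside 44.2% of the 1668 families with such a leader. Ccl3, Ccl4 and Ccl17 had long leaders and no upstream ORF in the list. The leader depends on the listed transcript: the same Ccl4 start had 1444 bases before it on the transcript of the 92-codon ORF, 620 on that of the 64-codon ORF and 211 on that of the 35-codon ORF.

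**Figure D4:**
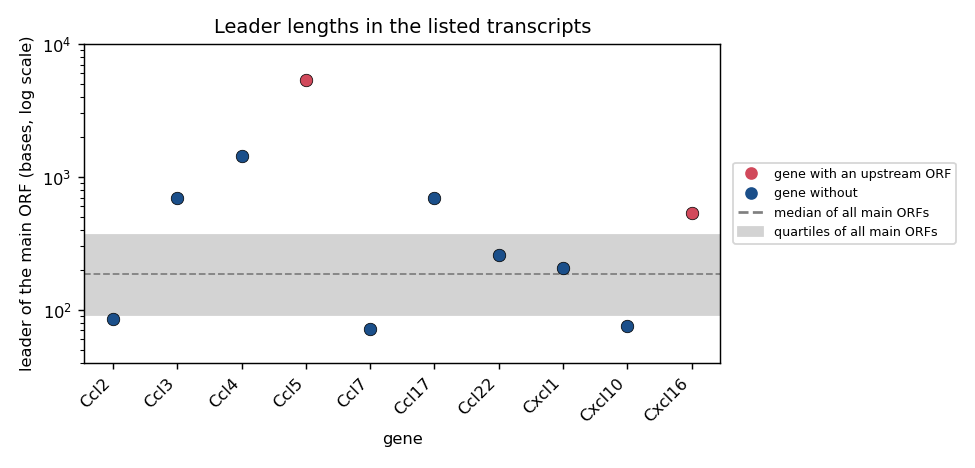
Leader length in bases (vertical axis, log scale) of the main ORF of each chemokine gene, with the median (dashed) and quartiles (grey) of all main ORFs. Ccl5 and Cxcl16, in red, are the genes with an upstream ORF, at 5324 and 537 bases; Ccl3, Ccl4 and Ccl17 lie above the upper quartile without one.

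Some of these leaders belong to transcripts much longer than the annotated gene. The listed transcripts of Ccl17 spanned 10181 bases against a gene length of 2659 in the naming table, 3.83 times as long. The ratio was 2.21 in Ccl5, 1.60 in Cxcl1 and 1.58 in Ccl3. These 4 of 10 genes passed a ratio of 1.5, beside 4.11% of all genes compared. Of 13 other chemokine ligands with a listed ORF, 3 also passed it: Cxcl3, Pf4 and Ppbp. Ccl2, Ccl7 and Cxcl10 matched the gene length within 2 bases, 3 of 10 genes beside 24.0% of all genes compared. Whether the long leaders of Ccl5, Ccl17 and Ccl3 are transcribed as listed was not tested.

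The genes lie in clusters, and some listed transcripts overlap a neighbour. On chromosome 11, Ccl2 and Ccl7 started 10122 bases apart on the plus strand, and Ccl3 and Ccl4 started 13386 bases apart on opposite strands. The transcript of the 92-codon Ccl4 ORF reached into Ccl3, so 97.8% of the coding bases of Ccl3 were also exon bases of Ccl4 on the other strand; the naming table's genes overlap as well. The exons of Ccl5 shared 4220 bases with the exons of an assembled transcript family without a gene name on the opposite strand. Exons of Cxcl16 shared 363 bases with those of Zmynd15 and 70 with those of Med11, both on the opposite strand. Whether reads were counted by strand is not given in the sources used here, and whether footprints on Ccl3 were kept apart from its overlapping Ccl4 exon was not tested. How footprints that match several similar chemokine genes were placed is not stated either.

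The Cxcl16 main stop was the exception among the 10 in its place on the transcript. It lay 245 bases before the last junction, a placement over 50 bases before it being found in 6.25% of all main ORFs. The other 9 main ORFs ended in the last exon. Of 13 other chemokine ligands with a listed ORF, 2 also had a stop over 50 bases before the last junction, Ccl9 and Cxcl11.

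Of the other chemokine ligands in a list of 28, 13 had a listed ORF, beside 46.0% of the protein-coding genes of the naming table. These were Ccl6, Ccl9, Ccl12, Ccl24, Ccl25, Cxcl3, Cxcl5, Cxcl9, Cxcl11, Cxcl14, Pf4, Ppbp and Cx3cl1. Ligands with no ORF in the list under their names were 15, among them Ccl1, Ccl8, Ccl11, Ccl19, Ccl20, Ccl21a, Ccl26 and Ccl27a. None of the 13 had an upstream ORF, and their main scores ran from 612 in Cxcl14 to 991 in Cxcl3 and Pf4, with a median of 987. The phase order of the 10 chemokines, 1 then 2, was shared by 9 of the 13. It was absent in Ccl6 and Ccl9, which had an additional coding exon and phases 1, 1 and 2, in the 8-exon ORF of Ccl25, and in Cxcl11, listed with 36 codons in 2 coding exons. Cxcl14 was the single one with another in-frame start: its 134-codon ORF scored 612 and its 99-codon ORF 739. Counted from the shorter start its first junctions fell in codons 22 and 57, and from the longer start in codons 57 and 92. In Cx3cl1, the other transmembrane chemokine, the main ORF had 395 codons, of which the last coding exon held 997 bases.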

How the data were processed

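The submitters' processing notes name the aligners Bowtie2 and TopHat and the genome build mm9, without versions. How ORFs were called and scored, on which transcript models and above which minimum is not given in the sources used here. Per the file, the deposited list holds a transcript's exons, an ORF span and a score per ORF; the score is the authors', and its scale and the libraries that entered it are not stated. The labels of all 37 libraries name this list. The colours in the file follow the score in steps of 100.

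Coding bases, leaders, junctions and classes were computed with Python 3.11.15. The main ORF is the longest of a family on a chromosome and strand; other ORFs were classed by position and shared in-frame codons. The lengths in all 22367 names matched their coding bases. Names and gene lengths come from a RefSeq table of GRCm38.p6, exon overlaps from the list, sequences from RefSeq windows of that build, and no mm9 position was converted. Class rules were tested on simulated families, each with a single transcript, where 2100 of 2100 ORFs were classed as made. No in-frame isoforms and no ORFs on differing transcripts were simulated. The classing of the Ccl4 isoforms and of the Cxcl16 ORFs on differing exons was therefore not covered. The members and gene lists were chosen with earlier results of these data known, so shares are descriptions without tests. All ORFs of the 10 genes are named, with every listed ligand and the first 8 unlisted ones in list order. Of receptors, enzymes and cytokines, those with an upstream or a further in-frame start ORF are named. Depth per library is unknown. 1 gene of the receptor list is not reported here. A planned comparison of main ORF lengths with RefSeq proteins was not run. Alternatives were score and length minimums, other main ORF rules and other counts of upstream ORFs and starts.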

Additional observations from a re-analysis of the deposited data

How the results depend on the processing

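Of 22 alternatives, all planned, 19 were counted as unchanged. These left the count within 1.5 times its value, or the median score of the main ORFs inside its 95% binomial interval, 969 to 991. The interval treats the 10 genes as a random sample, which they were not, so it served only as a yardstick for change. The 10 scores themselves ran from 944 to 991. The length and score minimums, up to 30 codons and 900, could not move the median of 989.5. Every chemokine main ORF had 91 or more codons and scored 944 or more, so none was removed. Picking main ORFs by score instead of length replaced the 246-codon Cxcl16 ORF (944) with its 4-codon ORF (945). As 944 was the lowest of the 10 scores, this swap could not move the median either. The upstream count stayed at 2 there, but for Cxcl16 it referred to another main start. Genes with an upstream ORF numbered 2 and fell to 1 with a minimum of 30 codons, where 8.50% of all genes had one, and to 1 when only ORFs ending before the main start were counted, where 16.0% did. Ccl17's other in-frame start was lost when ORFs scoring under 900 were removed: 0 of 10 genes and 0.434% of all genes then had such a start. With 93 codons and a score of 898, it could not be lost to minimums of 10 or 30 codons or of the list's median score, 847. No chemokine had a splice variant with the main start and stop, so counting these could not add a gene. The 19 unchanged alternatives thus include some whose outcome was fixed. The count of chemokine ligands with a listed ORF, the 10 genes included, was 23 of 38 with older gene names matched and also without. The share of all protein-coding genes was 46.0% with older names and 43.1% without. The 10 genes are in this count because they were chosen from the list. Main ORFs and classes were assigned again after each filter. No comparison with RefSeq protein lengths was run. No paired analysis was possible because the list has no value per library. Depth per ORF is unknown, so the absence of an ORF from the list is no measurement of its translation.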

Other observations

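Of 22 chemokine receptors, 9 had an ORF listed under their names, beside 46.0% of the protein-coding genes of the naming table. Upstream ORFs were listed under 2 of these names, Ccr2 and Xcr1, beside 19.9% of all named genes. They had 6 codons each and scores of 565 and 836. Other in-frame starts were listed under 4 of the 9 names, Ccr2, Ccr4, Cx3cr1 and Ccrl2, beside 23.1% of all named genes. In Ccr4, the receptor of CCL17 and CCL22, the 374-codon ORF scored 575 and the 360-codon ORF 671. The longest ORF under the name Xcr1 had 1438 codons in 17 coding exons; whether it belongs to a neighbouring gene was not checked. Adam10 and Adam17, proteases that shed CXCL16 and CX3CL1 from the cell surface, had an upstream ORF of 4 codons (score 833) and of 9 codons (score 785), and Adam17 also had in-frame starts giving 832 and 827 codons with scores of 532 and 904.

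Among 18 LPS-induced cytokines, mostly secreted like the chemokines, 16 had a listed ORF, beside 46.0% of the protein-coding genes. An upstream ORF was listed in 1 of the 16, Il15, and another in-frame start in Tnf and Il18. The counts in the chemokines were 2 of 10 and 1 of 10, and the shares of all named genes 19.9% and 23.1%. The median main score was 954 in the cytokines. The phase order 1 then 2 was found in 0 of the 16 cytokine main ORFs, beside 10 of 10 chemokines.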
